A study of Rattus norvegicus with 8 samples.

Results

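The 7 genes described here encode the Shaker-type (Kv1) voltage-gated potassium channels of the brain and their cytoplasmic beta subunits. They are the pore genes Kcna1, Kcna2, Kcna3, Kcna4 and Kcna6 and the beta subunit genes Kcnab1 and Kcnab2. They were taken by symbol from tables of 17168 genes, all 7 were present, and all 7 passed the low-count filter that left 11631 genes for testing. RNA was sequenced from medial prefrontal cortex homogenate of male Sprague-Dawley rats, with 4 libraries for a high (HI) and 4 for a low (LI) motor impulsivity phenotype. Premature responses in the 1-CSRT task, which tests whether a rat can wait for a cue, set the phenotype, HI rats lying in the highest quartile and LI rats in the lowest. The groups carried no transgene or drug treatment in the labels, and the labels state no age. The labels do not state that each library is a separate animal, so the p-values measure the spread between these libraries.

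Kv1 channels open on small depolarisations and are built from 4 pore subunits, which can be of the same or of different Kv1 types. In neurons they are concentrated at axon initial segments, beside nodes of Ranvier and at presynaptic terminals, where they delay spike onset and limit transmitter release. Beta subunits bind the inner face of the channel, help it reach the axon, and in the case of Kvbeta1 carry an N-terminal segment that blocks the open pore rapidly. In a homogenate, fewer cells that express a gene and less RNA per cell cannot be told apart.

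The promoter sequences of RefSeq (build GRCr8) held an entry for 6 of the 7 genes; Kcna1 had none. Each covers 250 bases before and 50 bases after the annotated transcript start. Kcna2 and Kcna3 are shown because they had the largest differences between HI and LI, and because they are neighbours on chromosome 2 in that assembly, where the protein-coding genes run Kcna3, Kcna2, Kcna10. Kcna4 is shown as the member of lowest GC content. Capitals mark the GC box letters GGGCGG or their reverse complement CCGCCC.
Kcna2, chr2:197393280-197393579, plus strand: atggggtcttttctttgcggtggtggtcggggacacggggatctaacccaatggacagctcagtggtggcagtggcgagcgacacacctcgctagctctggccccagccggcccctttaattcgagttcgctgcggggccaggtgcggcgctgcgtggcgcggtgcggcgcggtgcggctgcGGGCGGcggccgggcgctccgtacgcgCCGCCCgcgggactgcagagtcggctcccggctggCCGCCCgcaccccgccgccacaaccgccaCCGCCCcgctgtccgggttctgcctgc
Kcna3, chr2:197320074-197320373, plus strand: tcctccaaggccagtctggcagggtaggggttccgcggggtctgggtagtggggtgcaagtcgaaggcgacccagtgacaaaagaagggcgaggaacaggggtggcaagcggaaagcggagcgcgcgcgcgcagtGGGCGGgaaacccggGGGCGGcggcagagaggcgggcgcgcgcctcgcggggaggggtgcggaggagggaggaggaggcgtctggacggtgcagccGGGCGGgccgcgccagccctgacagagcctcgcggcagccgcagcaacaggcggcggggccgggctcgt
Kcna4, chr3:114215086-114215385, plus strand: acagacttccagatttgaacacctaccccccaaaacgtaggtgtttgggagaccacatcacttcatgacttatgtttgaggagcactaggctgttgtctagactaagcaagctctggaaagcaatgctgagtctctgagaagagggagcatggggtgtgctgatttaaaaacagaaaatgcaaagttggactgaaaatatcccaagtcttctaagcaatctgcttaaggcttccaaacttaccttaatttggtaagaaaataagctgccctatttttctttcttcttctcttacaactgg

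The Kcna2 window held 4 GC boxes and 40 CpG dinucleotides at a GC content of 73.3%, and the Kcna3 window 3 GC boxes and 36 CpG at 74.0%. GC content was lower than in Kcna2 in 95.4% of the 33469 rat promoter windows of this length, whose median was 51.7% GC and 7 CpG, and 33.1% of them held at least 1 GC box. The Kcna4 window, at 41.7% GC, held 1 CpG, and the Kcna6 window, at 43.0%, held 3. Kcnab2 was GC-rich (66.0%, 28 CpG) and Kcnab1 intermediate (56.7%, 9 CpG). None of Kcna4, Kcna6, Kcnab1 and Kcnab2 held a GC box, and TATAAA was in none of the 6 windows, against 14.2% of all windows. CCAAT was found once in Kcna2 and once in Kcnab2, and in 37.5% of all windows, and TGACG, a core of cyclic AMP response elements, once in Kcnab1 and in 21.2% of all windows. All motifs were searched on both strands. These matches describe the letters of the windows and say nothing of binding.

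Library totals ran from 7354416 to 9476656 counts. Ribosomal RNA took 25.5% of the counts in HI2, 0.406% in HI4, 0.418% in LI3 and 1.37% to 6.42% in the other 5, and HI4 and LI3 stood apart on the first principal component of log2 CPM (51.0 and 34.6, against -25.9 to 2.05). Of the marker lists, neuronal genes were detected in every library, with summed levels of 14528 TPM in HI4 and 11666 in LI3 and 6887 to 9875 in the others. In LI2 the 6 myelin genes summed to 6145 TPM, against 1534 to 3127 in the other 7 libraries, and 7 striatal genes to 920 TPM, against 295 to 373. The estimates were lower in HI for 6 of 6 myelin genes (median log2 fold change -0.62; LI2, LI3 and LI4 above every HI library and LI1 below) and for 7 of 7 striatal genes (median -0.62), and higher in HI for 4 of 4 tested meningeal genes (median 1.67), with 0 past the adjusted threshold by edgeR's quasi-likelihood test. Of all genes tested, 48.5% had estimates above 0. The meningeal genes summed to 455 TPM in HI1 and 40.0 to 111 TPM in the other HI libraries, against 17.6 to 107 TPM in LI. The shifts of these lists stand beside the group differences of the 7 members given below, and their part in them was not tested. Summed levels of HI and LI overlapped for 6 interneuron genes (887 to 1538 and 1120 to 1593 TPM), 5 astrocyte genes (1078 to 1471 and 1159 to 1402 TPM) and 5 endothelial genes (60.9 to 120 and 63.2 to 107 TPM). Singly, the interneuron gene Erbb4 had all HI above all LI (29.7 to 49.6 and 17.9 to 25.1 CPM), as did 2.31% of all genes. The other interneuron genes overlapped. Of the 7 neuronal genes 4 estimates were above and 3 below 0, with Gad1 at -0.42 and its libraries overlapping. Neither Erbb4 nor Gad1 passed the adjusted threshold.

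Per transcript length, the beta subunit gene Kcnab2 was the most abundant of the 7. Its level was 231 ± 31.1 TPM (the authors' length-corrected level, SD over the 8 libraries), and it lay above Kcnab1 (56.5 ± 7.10 TPM) in 8 of 8 libraries with no overlap of their ranges. Kvbeta2, its product, is the main beta subunit of brain Kv1 channels and lacks the blocking segment of Kvbeta1. Kcnab1, Kcna1 (48.4 ± 12.1 TPM), Kcna6 (47.6 ± 7.71 TPM) and Kcna2 (44.0 ± 12.6 TPM) followed close together, and each neighbour in that order overlapped the next. Kcna1 was above Kcna6 in 3 of 8 libraries and Kcna6 above Kcna2 in 6 of 8. Kcna4 (15.7 ± 2.15 TPM) lay below Kcna2 in 8 of 8 libraries with no overlap, and Kcna3 (13.6 ± 4.43 TPM) could not be placed apart from it, being lower in 5 of 8. These levels rest on the listed transcripts, which were as short as 1578 bases for Kcna3 and as long as 6696 for Kcna6.

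**Figure D1:**
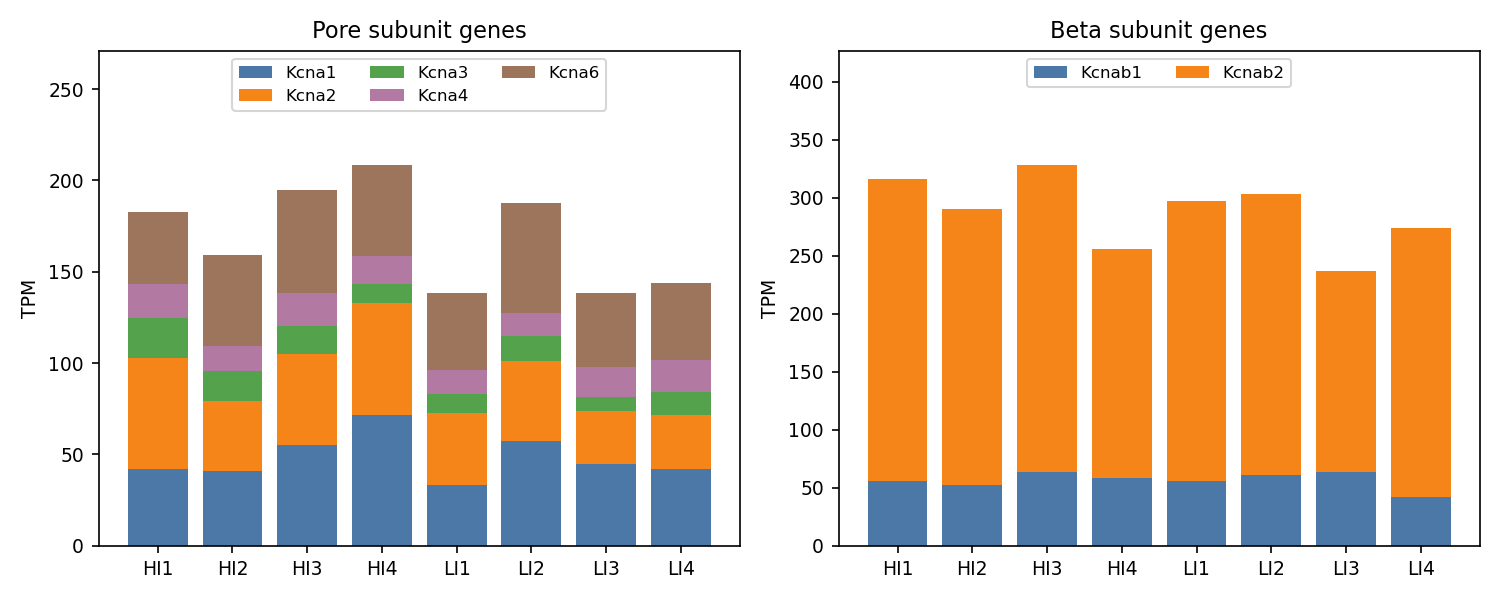
TPM of the 5 pore genes (left) and the 2 beta genes (right), stacked, in each of the 8 libraries. The pore sum of LI2, at 188 TPM, lies among the HI values of 159 to 208 while the other 3 LI libraries lie between 138 and 144, and Kcnab2 makes up most of every beta bar.

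Between HI and LI, 0 of the 7 members passed the threshold (an adjusted p of 0.1 by edgeR's quasi-likelihood test), as did 0 of 11631 genes (0%). The estimated log2 fold change, HI minus LI, was above 0 for 7 of 7 members (median 0.14), against 48.5% of all genes tested (median -0.0069). Kcna5 (-0.093) and Kcnab3 (-0.50), tested genes of the same family outside the 7, were both below 0. The members were chosen with earlier results of these data known, so the count of signs is a description only. Mean log2 CPM differences were also taken within replicates 1 and 2 and within replicates 3 and 4, a split that the labels do not name. Their sign differed for Kcna1 (-0.052 and 0.51), Kcna4 (0.32 and -0.035), Kcna6 (-0.15 and 0.33) and Kcnab1 (-0.084 and 0.22). Kcna2, Kcna3 and Kcnab2 were higher in HI within both. Both sets are parts of the libraries behind the full estimate, so a shared sign is no separate support. How many of all genes shared a sign was not counted. In Kcna2 the libraries of replicates 1 and 2 overlapped, HI2 (43.8 CPM) lying below LI2 (45.8 CPM). At an unadjusted p under 0.05 there was 1 member, Kcna2, higher in HI; 484 genes or 4.16% met that rule and 3.07% met it with HI higher. DESeq2 called 0 of the members, of which Kcna3 received no adjusted p, and 0.327% of all genes, and a fit with each library's ribosomal RNA share as a term called 0 of 7 and 3.78%. Fisher's exact test on counts summed within groups, the test named in the design text, called Kcna1, Kcna2 and Kcna3. However, it called 56.7% of all genes and takes no account of the spread between libraries. It was run on raw totals without TMM scaling, and called 1479 genes higher and 5117 lower in HI. The HI and LI libraries overlapped in each of the 7 genes, while 2.31% of all genes had all HI above all LI and 1.14% the reverse.

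**Figure D2:**
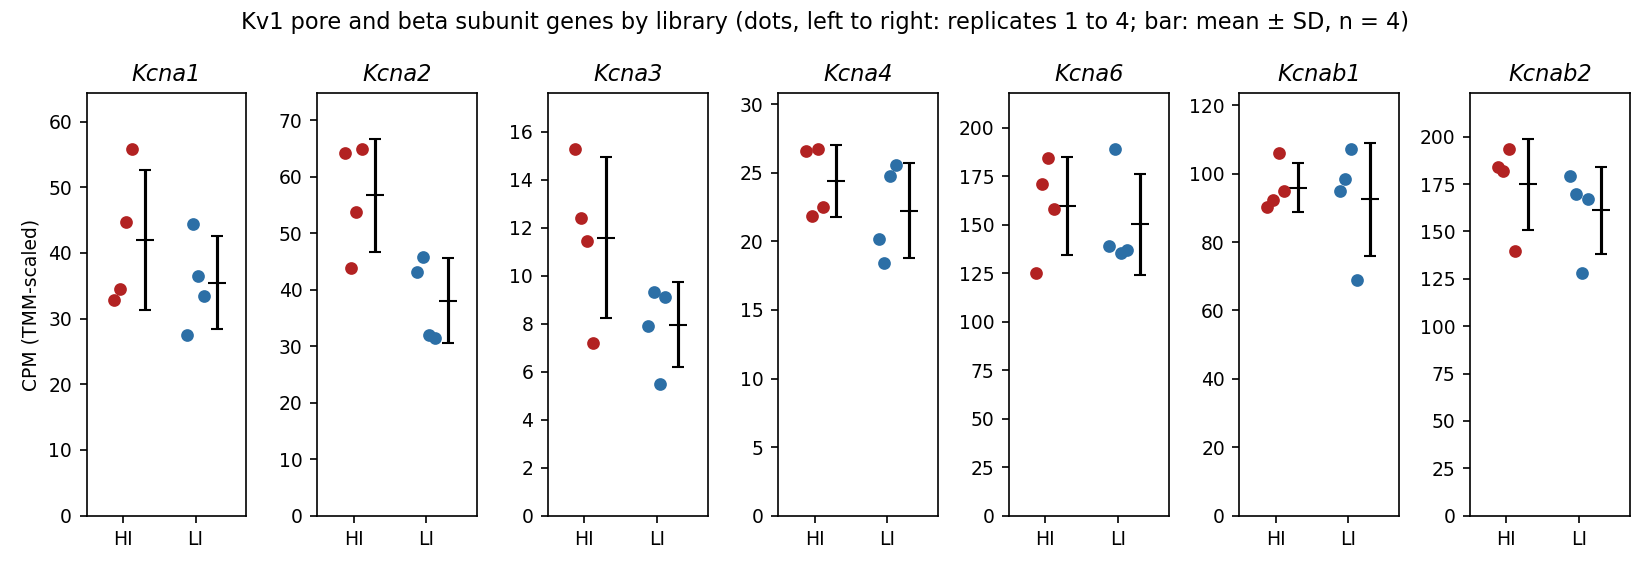
CPM (counts scaled to a common library size by TMM factors) of each gene in the 4 HI libraries (red) and the 4 LI libraries (blue), with the mean and SD of each group in black and a separate axis from 0 for each gene. In Kcna2 only HI2, at 43.8, reaches down into the LI values, which end at 45.8.

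Kcna2 encodes Kv1.2, a slowly inactivating axonal subunit that commonly joins Kv1.1 in the same channel. It stood at 64.1, 43.8, 53.7 and 65.0 CPM in libraries HI1 to HI4, and the LI1 to LI4 values were 43.1, 45.8, 31.9 and 31.4 CPM. HI1, HI3 and HI4 lay above every LI library, and HI2, the library with the most ribosomal RNA, lay between LI1 and LI2. The HI mean was 56.7 ± 9.97 CPM and the LI mean 38.1 ± 7.47 CPM (SD of 4 libraries). The log2 fold change was 0.58 ± 0.18 (SE), with a 95% interval from 0.18 to 0.97, an unadjusted p of 0.00876 and an adjusted p of 1.00 (edgeR's quasi-likelihood fit over all genes). By p it ranked 86th of the 11631 genes. Within replicates 1 and 2 the HI mean was higher by 0.25 log2 units and within replicates 3 and 4 by 0.90. Without any 1 library the estimate stayed between 0.49 and 0.68, with unadjusted p from 0.00287 to 0.0294 by the same test.

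Kcna1 encodes Kv1.1, the low-threshold subunit whose loss causes seizures in mice and whose mutations cause episodic ataxia in people. It stood at 32.9, 34.5, 44.7 and 55.9 CPM in libraries HI1 to HI4, and the LI1 to LI4 values were 27.5, 44.4, 36.5 and 33.5 CPM. HI4 was the highest and the groups overlapped through most of their range. The log2 fold change of 0.25 ± 0.20 had an interval from -0.21 to 0.70 and an unadjusted p of 0.255 (edgeR's quasi-likelihood test). It was 0.078 without HI4 and 0.37 without LI2, and -0.052 within replicates 1 and 2 against 0.51 within replicates 3 and 4.

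The ratio of Kcna1 to Kcna2, in TPM, does not depend on library scaling. It was 0.690, 1.06, 1.12 and 1.16 in libraries HI1 to HI4, and the LI1 to LI4 ratios were 0.858, 1.30, 1.54 and 1.43. Kcna1 was thus the lower of the pair in HI1 and LI1, and LI2, LI3 and LI4 had the 3 highest ratios. The HI mean was 1.01 ± 0.215 and the LI mean 1.28 ± 0.300 (SD of 4 libraries), and the groups overlapped through LI1. Of the summed TPM of the 5 pore genes, Kcna2 made up 28.1% ± 4.20 in HI and 23.2% ± 3.56 in LI, and Kcna1 27.8% ± 4.80 and 29.0% ± 3.47.

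Kcna3 encodes Kv1.3, best known from T cells and microglia and also present in neurons. It stood at 15.3, 12.4, 11.5 and 7.19 CPM in libraries HI1 to HI4, and the LI1 to LI4 values were 7.91, 9.34, 5.49 and 9.11 CPM. HI1, HI2 and HI3 lay above every LI library and HI4 below 3 of them. HI4 and LI3, the libraries with the least ribosomal RNA, were each the lowest of their group. The log2 fold change was 0.54 ± 0.26, with an interval from -0.028 to 1.11 and an unadjusted p of 0.0603 (edgeR's quasi-likelihood test). It was 0.71 without HI4 (unadjusted p = 0.00786), 0.57 without both HI4 and LI3 (unadjusted p = 0.0109) and 0.37 without HI1 (unadjusted p = 0.189) in the same test. Kcna3 had the fewest reads of the 7, from 43 in LI3 to 148 in HI1, so that counting alone gives an error of 15.2% at the lowest value.

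Markers of the immune cells in which Kcna3 is best known were read beside it. The 8 microglia and macrophage genes all had lower estimates in HI (0 passed the adjusted threshold), as did 5993 of all 11631 genes. Their summed level was 324 to 392 TPM in HI and 405 to 450 TPM in LI, without overlap. Singly, only Aif1 and Tmem119 had all HI below all LI, as did 1.14% of all genes, and the others overlapped. The part of these cells in the Kcna3 difference was not tested. Of 6 T cell genes, Cd3g was listed at 0 in all 8 libraries, Cd3d did not exceed 0.490 TPM, Cd2 0.390 TPM and Cd3e 0.840 TPM, Lck stood at 1.01 to 2.94 TPM and Cd247 at 0.180 to 3.40 TPM, and the summed level was 2.70 to 7.04 TPM in HI and 3.45 to 5.37 TPM in LI. The 5 meningeal genes summed to 455 TPM in HI1, the library with the most Kcna3, and to 17.6 to 111 TPM in the other 7; their part in the Kcna3 value of HI1 was not tested.

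Kcna4 encodes Kv1.4, the rapidly inactivating subunit of this group, found in axons and terminals. It stood at 26.6, 21.8, 26.8 and 22.5 CPM in libraries HI1 to HI4, and the LI1 to LI4 values were 20.2, 18.4, 24.8 and 25.6 CPM. The groups overlapped, with LI2 lowest, and the log2 fold change of 0.14 ± 0.15 had an interval from -0.20 to 0.47. It was 0.058 without LI2 and 0.20 without LI4. The TPM ratio of Kcna4 to Kcna2 was 0.302, 0.362, 0.362 and 0.252 in libraries HI1 to HI4, and the LI1 to LI4 ratios were 0.341, 0.292, 0.564 and 0.591. LI3 and LI4 had the highest ratios, while LI1 and LI2 lay among the HI libraries.

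Kcna6 encodes Kv1.6, a subunit with slow inactivation that joins other Kv1 subunits in brain. It stood at 125, 171, 184 and 158 CPM in libraries HI1 to HI4, and the LI1 to LI4 values were 139, 189, 135 and 137 CPM. LI2 was the highest of all 8 libraries and the other 3 LI libraries lay within 4 CPM of each other. The log2 fold change was 0.088 ± 0.16, with an interval from -0.26 to 0.44, and it was 0.22 without LI2 and 0.012 without HI3. LI2 was also the library with the high myelin and striatal levels given above, whose part in its Kcna6 value was not tested. Expected counts of Kcna6 were not whole in any of the 8 libraries. In each of them the sum of the Kcna6 and Kcna5 counts was whole to within 0.011, so some reads were divided between these genes, which lie on chromosome 4 in the order Kcna5, Kcna1, Kcna6 in GRCr8. Kcna5 (7.05 TPM on average) is much the smaller of them, and its own difference was -0.093 ± 0.38. Counts of Kcna4 were not whole either, and with no other gene did they give a whole sum in more than 3 libraries.

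In both beta subunit genes the 95% interval of the difference included 0. Kcnab1 stood at 90.3, 92.2, 106 and 95.0 CPM in libraries HI1 to HI4, and the LI1 to LI4 values were 94.9, 98.6, 107 and 69.0 CPM. LI4 was the lowest, and the other 7 libraries lay between 90.3 and 107 CPM. The log2 fold change of 0.054 ± 0.14 had an interval from -0.26 to 0.37, and its sign turned without LI4 (-0.069).

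Kcnab2 stood at 184, 182, 194 and 140 CPM in libraries HI1 to HI4, and the LI1 to LI4 values were 179, 170, 128 and 167 CPM. HI1, HI2 and HI3 lay above every LI library, and HI4 and LI3 were far below the rest of their groups, with HI4 the higher of them. The log2 fold change was 0.12 ± 0.14, with an interval from -0.20 to 0.44, and it was 0.12 without HI4 and LI3, 0.21 without HI4 alone and 0.024 without LI3 alone. The ratio of Kcnab1 to Kcnab2, in TPM, ran from 0.214 to 0.296 in HI and from 0.180 to 0.366 in LI.

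**Figure D3:**
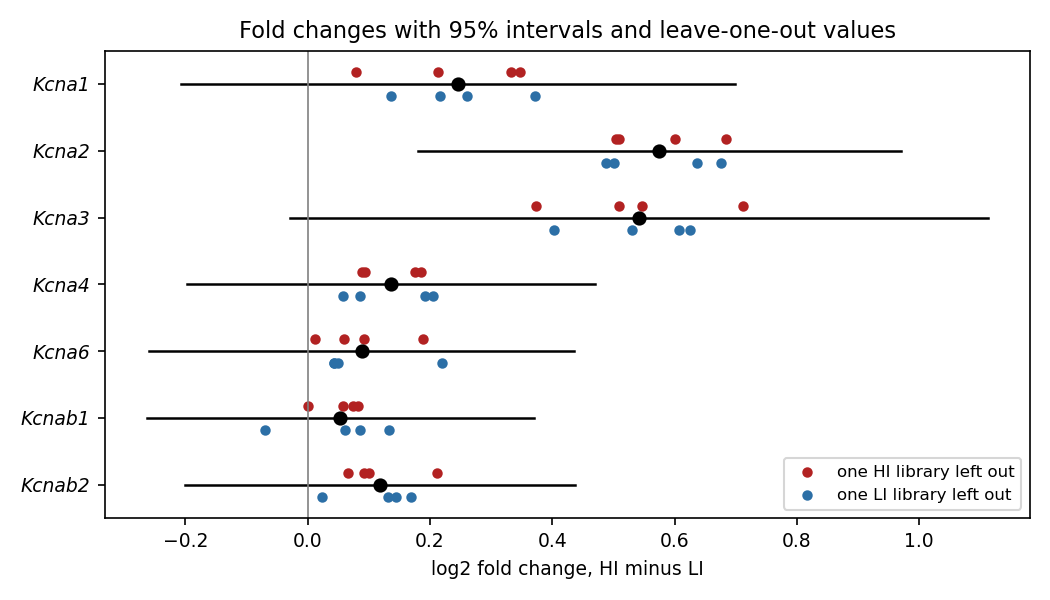
Log2 fold change of HI minus LI (x axis) for each gene, with the estimate in edgeR's quasi-likelihood fit (black dot), its 95% interval (line) and the estimates with 1 HI (red) or 1 LI (blue) library left out. The interval of Kcna2, from 0.18 to 0.97, is the only one of the 7 that does not reach 0, before any adjustment for the number of genes tested.

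Summed over the 5 pore genes, levels were 183, 159, 195 and 208 TPM in libraries HI1 to HI4, and the LI1 to LI4 sums were 138, 188, 139 and 144 TPM. LI2 lay inside the HI range and the other 3 LI libraries below all HI libraries. The ratio of the group means was 1.22, and 1.33 without LI2. The beta sum was 256 to 328 TPM in HI and 237 to 303 TPM in LI, with a ratio of means of 1.07. The beta to pore ratio averaged 1.61 ± 0.265 over the HI and 1.84 ± 0.236 over the LI libraries (SD, 4 libraries each), with HI4 lowest at 1.23, LI1 highest at 2.15 and the other 6 libraries between 1.62 and 1.90. These sums cover chosen genes, are set by the most abundant of them and were not tested.

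Among the members, Kcna3 and Kcnab2 varied most alike over the 8 libraries (Pearson r of log2 CPM 0.84, Spearman rho 0.86, n = 8). Without HI4 and LI3, low in both genes, r was 0.54. Kcna1 and Kcna2, whose products share channels, gave r = 0.46, and 0.22 without HI4 and LI3, while Kcna1 and Kcna6 gave 0.59 and 0.81. The other 18 of the 21 pairs lay between -0.42 and 0.48. Without HI4 and LI3 several of these were above the value of Kcna3 with Kcnab2: Kcna2 gave 0.72 with Kcnab2, 0.71 with Kcna3 and 0.70 with Kcnab1, Kcnab1 with Kcnab2 went from -0.17 to 0.67, Kcna6 with Kcnab1 gave 0.58 and Kcna3 with Kcna4 0.56. The values of several pairs thus changed when those 2 libraries were left out, while others moved little, such as Kcna4 with Kcna6 (-0.42 to -0.38). No other 2 libraries were left out. Depth, ribosomal RNA content and group are shared by the points of every pair, so these values are descriptions and carry no p.

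**Figure D4:**
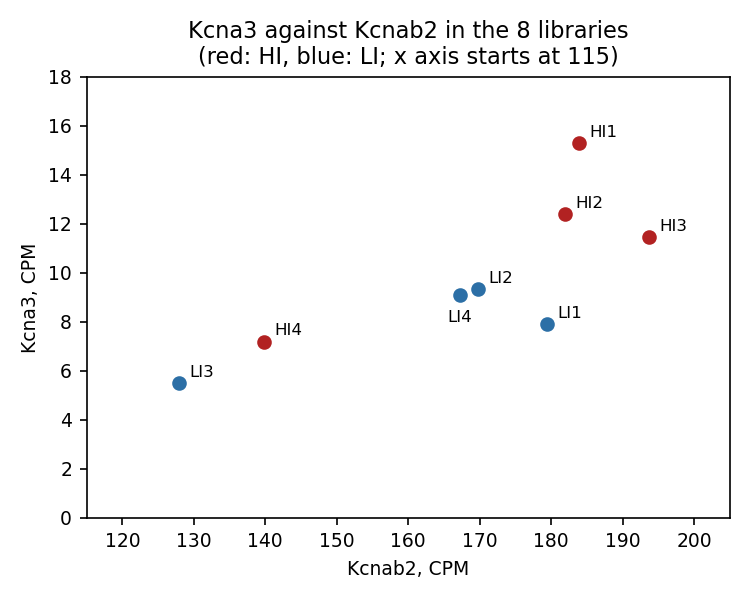
CPM of Kcna3 (y axis) against CPM of Kcnab2 (x axis) in the HI (red) and LI (blue) libraries. HI4 and LI3 lie at the lower left, and among the other 6 the 3 HI libraries lie above and to the right of the 3 LI libraries.

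Of all 11631 genes tested, the ones whose log2 CPM followed Kcna2 most closely were Ntrk3, the receptor of neurotrophin 3 (r = 0.97, n = 8 libraries), and Grin2a, an NMDA receptor subunit (r = 0.97). Without HI4 and LI3 these values were 0.96 and 0.95. For Kcna1 the closest genes were Nbr1 (r = 0.95) and Kpnb1 (0.94), for Kcna3 Dcaf7 (0.99) and Mpzl2 (0.98), and for Kcna4 Erg and Fxyd5 (0.94 each). For Kcna6 they were Tle4 (0.93) and Arih2 (0.92), for Kcnab1 Oxsm (0.96) and Rraga (0.94), and for Kcnab2 Gas2l1 (0.98) and Fam160a2 (0.97). Without HI4 and LI3 the Kcnab2 values fell to 0.88 and 0.79 and that of Kcna1 with Kpnb1 to 0.89, and those of the other genes named here for members other than Kcna2 lay between 0.94 and 0.98. The Pearson values over 8 libraries are the highest of all coefficients over the tested genes, from 8 points that share library and group, and no p is given. Spearman rho was lower for Kcnab1 with Rraga (0.60) and for Kcna4 with Fxyd5 (0.76). It lay between 0.83 and 0.98 for the other genes named.

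The remaining family members and the proteins that hold Kv1 channels in the axon were read from a list of 24 genes, of which 22 were in the tables and 19 were tested. None passed the adjusted threshold, and 11 estimates were above and 8 below 0 (median log2 fold change 0.051), against 48.5% of all genes above 0. Of the 19, 1 had an unadjusted p under 0.05 (edgeR's quasi-likelihood test), against 4.16% of all genes. That gene was Dlg2, a membrane scaffold of the PSD-95 family (PSD-93) that binds the Kv1 C-terminus, with an HI mean of 228 ± 61.0 CPM and an LI mean of 169 ± 11.4 CPM (SD of 4 libraries). Its log2 fold change was 0.43 ± 0.17 (unadjusted p = 0.0283 and adjusted p = 1.00, edgeR's quasi-likelihood test). HI4, at 318 CPM, was far above the other HI libraries (183 to 214), and LI3 at 184 lay within the HI range. Adam23, a receptor of the secreted protein LGI1, differed by 0.29 ± 0.15, the initial segment anchor Ank3 by 0.24 ± 0.15 and the adhesion protein gene Nrcam by 0.24 ± 0.15. HI and LI overlapped in each.

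The third beta subunit gene, Kcnab3, which is outside the 7, stood at 18.8, 12.7, 14.8 and 9.72 CPM in libraries HI1 to HI4, and the LI1 to LI4 values were 15.7, 13.5, 9.32 and 40.7 CPM. LI4 alone was far above the other 7 libraries, and the log2 fold change of -0.50 ± 0.42 had an interval from -1.43 to 0.43. LI4 was also the library with the lowest Kcnab1. Kcna7 had 0 to 6 counts per library, and Kcna10 had 1 count in HI1 and 0 in the other 7; neither was tested.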

How the data were processed

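The deposited tables, 1 per library, list 17168 genes by symbol. Per the file headers, each gene has an expected count (estimated reads), a length-corrected TPM and an FPKM, all computed by the authors, beside its transcript length. The submitters' processing notes name Bowtie2 2.1.0; quantifier, build, annotation and strand setting were not given in the sources used here. All 7 members were listed with 1 RefSeq transcript each, and all 7 transcripts matched the same symbol in RefSeq (GRCr8, used for names, gene order and promoters).

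The labels give no batch. Expected counts were rounded and scaled by TMM. Genes were filtered with filterByExpr (minimum count 10, minimum total 15). HI was compared with LI by edgeR 4.0.16's quasi-likelihood test (R 4.3.3), with Benjamini-Hochberg adjustment over 11631 genes and a threshold of 0.1, the alpha of the design text; Fisher's exact test, which that text names, was an alternative, as were DESeq2 1.42.0 and limma 3.58.1 on log2 TPM with pseudocounts of 0.5 and 0.1. The SE of a log2 fold change is its size over the root of the quasi-likelihood F. Log2 CPM used a prior count of 2. FPKM entered 1 alternative for the sums. The fits were tested on simulated data. No pair of libraries of a group agreed within sampling noise (lowest chi-square per degree of freedom 14.5). Counting errors cover read sampling only.

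The members, the partner list and the marker lists were chosen with earlier results of these data known. All 7 members are named; from the partner list the family members and the 5 tested genes with the smallest p are named; for each member the 2 genes of highest Pearson r are named.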

Additional observations from a re-analysis of the deposited data

Results flagged for a closer look

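In groups of 4 libraries, a library was marked when its gap to the nearest of the others as a share of the group's range exceeded Dixon's 95% critical value, which chance does in about 1 of 20 groups; 20 groups were examined. The Kcna6 level of LI2, 189 CPM, was marked, against 135 to 139 CPM in the other 3 LI libraries. The summed TPM of the 5 pore genes in LI2, 188 TPM, was marked against 138 to 144 TPM in the other 3. Within the LI group, 4 of the 5 pore genes (Kcna1, Kcna2, Kcna3 and Kcna6) were highest in LI2 in TPM, and Kcna4 was lowest there.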

How the results depend on the processing

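The count of genes called was 0 in edgeR's quasi-likelihood test and stayed 0 without each library in turn (range 0 to 0 for all genes and for members). It was 38 with DESeq2 (0.327% of genes), 1 with edgeR's exact test, 0 with limma-voom and with limma on log2 TPM, 440 with a ribosomal RNA share term (3.78%) and 6596 with Fisher's exact test on summed counts (56.7%), which ignores the spread between libraries. Of the 7 members only Fisher's test called any, 3 in number: Kcna1, Kcna2 and Kcna3, at log2 fold changes of 0.16, 0.50 and 0.45. For Kcna2 the adjusted p was 0.312 with DESeq2 and 0.107 with the ribosomal RNA covariate, and without HI4 and LI3 its log2 fold change was 0.43 (edgeR's adjusted p = 0.959). Of 154 recomputed member values, 147 kept direction and side of the threshold, 1 of them (Kcna3 with DESeq2) by direction alone, as it had no adjusted p. The sign reversed for Kcna6 with Fisher's test (-0.015) and with the length slope removed (-0.0145). It also reversed for Kcnab1 with Fisher's test (-0.028) and without LI4 (-0.069, the range without 1 library being -0.069 to 0.134). Fold changes beside Fisher's test rest on raw totals without TMM scaling. Their median over all genes was -0.11, against -0.0069 in edgeR's fit, and both reversed Fisher values lay above that median. The part of this scaling in the Fisher reversals was not tested, nor was the cause of the other reversals. The labels do not state whether replicate numbers pair the libraries. Same-numbered deviations correlated at 0.22, 0.54, -0.05 and 0.06, and only HI2 had its same-numbered LI library as the best match. These few values cannot decide on pairing. With the replicate block 0 genes were called and Kcna2 stood at 0.58. The HI to LI ratio of the pore sum ranged from 1.18 to 1.33 without 1 library, of the beta sum from 1.02 to 1.12 and of beta to pore from 0.839 to 0.946. With FPKM in place of TPM these ratios were 1.15, 0.997 and 0.876, so that the beta sum was no longer higher in HI. With TPM rescaled without ribosomal RNA they were 1.25, 1.10 and 0.876. Depth limits Kcna3 most, at 43 to 148 counts.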
